A study of Mus musculus with 11 samples.

Results

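The genes described here are the 4 Id genes, Id1, Id2, Id3 and Id4, with Smad6, Smad7, Hey1 and Bambi, all connected to signalling by bone morphogenetic proteins (BMPs) and TGF-beta. They are 8 of the 22491 gene symbols on the array and have 9 of its 46237 probes, 2 of them for Id2. The list was chosen by gene function together with measured values of these same arrays, since Id2 was already known to differ with Crebl2 siRNA in ethanol. Values of the 8 genes in that comparison, and in the interaction that contains it, are therefore a description with no test. Each rapamycin comparison shares an ethanol group with that comparison, so its Id2 values are not independent of the choice.

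Id proteins are helix-loop-helix proteins that lack a DNA-binding region. They pair with basic helix-loop-helix (bHLH) transcription factors, keep them off DNA, and in this way hold back differentiation. BMP ligands act through receptor kinases and Smad proteins, and Id1, Id2 and Id3 are among the classic BMP target genes in fibroblasts and other mesenchymal cells. Smad6 and Smad7 are inhibitory Smads, and Bambi is a pseudoreceptor without kinase activity; all are induced by the pathway that they dampen. Hey1 is a bHLH repressor that responds to Notch signalling and, in several cell types, to BMPs.

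The samples are 11 Illumina bead arrays, 1 colour each, of RNA from mouse embryonic fibroblasts of a p53-/- TSC2-/- line, so all groups carry both losses. TSC2 is a brake on mTORC1, the growth-promoting kinase complex that rapamycin inhibits. The groups were Crebl2 siRNA with rapamycin (3 arrays), Crebl2 siRNA with ethanol (3), luciferase siRNA with rapamycin (3) and luciferase siRNA with ethanol (2). Rapamycin was given at 20 nM for 12 h, and ethanol, its solvent, for the same time. Luciferase has no target in these cells, and Crebl2 encodes a bZIP protein related to CREB factors. The sample labels give 3 days of siRNA and the name Crebl2, whereas the design text gives 2.5 days and the name Creb2. One line was used throughout, and the labels do not say whether replicates are separate cultures, so p-values reflect the spread between these samples alone, which may be technical.

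Array medians of normalized intensity lay between 110.5 and 112.4, and 46.9% to 51.2% of probes were detected above background. The targeted gene gave no check of the knockdown: Crebl2 intensities were 111, 118 and 105 with Crebl2 siRNA and rapamycin, against 117, 149 and 148 with luciferase siRNA and rapamycin, a log2 change of -0.30 ± 0.12 (SE; limma adjusted p = 0.082). In ethanol they were 135, 112 and 103 with Crebl2 siRNA, against 132 and 133 with luciferase siRNA (-0.19 ± 0.13, adjusted p = 0.470). These levels lie near background, and the groups overlapped in both media. Of 11 fibroblast marker genes 9 were detected on all arrays and Lum on none, while 4 of 5 epithelial markers were also detected on all arrays. Adipoq, Cidec, Fabp4 and Plin1, which mark adipocytes, Ckm and Myod1, which mark muscle, Ptprc of leukocytes and Emcn of endothelium were detected on no array. Of these lists 1 of 5 adipocyte, 1 of 5 muscle, 2 of 5 macrophage and 2 of 6 endothelial markers were detected on all arrays. Because RNA was pooled from whole cultures, fewer cells of a type and less RNA per cell cannot be told apart.

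The 3 arrays of Crebl2 siRNA with rapamycin and replicate 3 of Crebl2 siRNA with ethanol stood apart from the other 7. Over all probes, log2 values correlated at 0.989 to 0.995 among these 4 arrays, at 0.984 to 0.996 among the other 7 and at 0.920 to 0.940 across the 2 sets. Comparisons that use the 4 arrays are therefore given with and without a term for them. That term is estimated only inside the Crebl2 siRNA with ethanol group, from its replicate 3 against replicates 1 and 2.

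Promoter windows were available for 4 of the 8 genes, in RefSeq sequences of the mouse build GRCm38.p6. Each window runs from 250 bases before to 50 bases after the gene start. Those of Id2 and Id3 are shown because probes of these 2 genes were both higher on each of the 4 arrays that stand apart than on any of the other 7. Id2 (chromosome 12, 25093799 to 25096092) has the window chr12:25096043-25096342 on the minus strand, and Id3 (chromosome 4, 136143822 to 136145392) has chr4:136143572-136143871 on the plus strand. Capitals mark 4 short motifs, each searched on both strands: the E-box, GGCGCC, the Smad box and a short site bound by CREB-family factors. The E-box, bound by bHLH factors, was searched as CANNTG. The Smad box was searched as CAGAC. The CREB-family site was searched as TGACG.
Id2 promoter window: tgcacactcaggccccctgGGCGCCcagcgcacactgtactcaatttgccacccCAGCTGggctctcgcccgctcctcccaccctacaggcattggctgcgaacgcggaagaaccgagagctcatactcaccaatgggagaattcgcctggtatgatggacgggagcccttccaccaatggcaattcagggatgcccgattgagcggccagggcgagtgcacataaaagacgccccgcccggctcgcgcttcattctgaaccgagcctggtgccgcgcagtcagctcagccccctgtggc
Id3 promoter window: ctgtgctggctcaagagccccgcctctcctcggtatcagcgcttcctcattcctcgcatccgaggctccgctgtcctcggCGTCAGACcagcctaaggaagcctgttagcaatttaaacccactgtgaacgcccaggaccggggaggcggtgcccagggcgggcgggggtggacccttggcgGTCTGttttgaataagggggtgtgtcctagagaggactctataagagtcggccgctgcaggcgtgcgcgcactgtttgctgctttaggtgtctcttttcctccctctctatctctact
The Id2 window holds 1 GGCGCC, starting 231 bases before the gene start, and 1 E-box, starting 196 bases before it, with neither of the other motifs. The Id3 window holds 1 CREB-family site, on the other strand and starting 170 bases before the gene start, which overlaps 1 of its 2 Smad boxes, starting 167 and 68 bases before it. These motifs are common: of 32851 promoter windows 72.3% hold an E-box, 49.6% a Smad box, 20.8% the CREB-family site and 11.9% GGCGCC. The Id4 window holds 1 GGCGCC and 1 CREB-family site, and the Smad6 window 1 E-box. A match in letters is not a bound site.

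Of the 9 probes, 7 (6 genes) passed the filter of detection at p under 0.05 on at least 2 arrays. Id2 probe ILMN_2887239 and Id4 were each detected on 1 luciferase siRNA array, so they passed only through Crebl2 siRNA arrays. Smad7 and Bambi, the receptor-level inhibitors, were not well above background on any array by their detection p-values. Their normalized intensities ranged over all 11 arrays from 86.8 to 111 for Smad7 and from 90.6 to 105 for Bambi, whereas the lowest signal counted as detected on an array lay between 106.5 and 109.9. Nothing can be said of their regulation from these arrays. The feedback inhibitor that could be followed was Smad6.

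**Figure D1:**
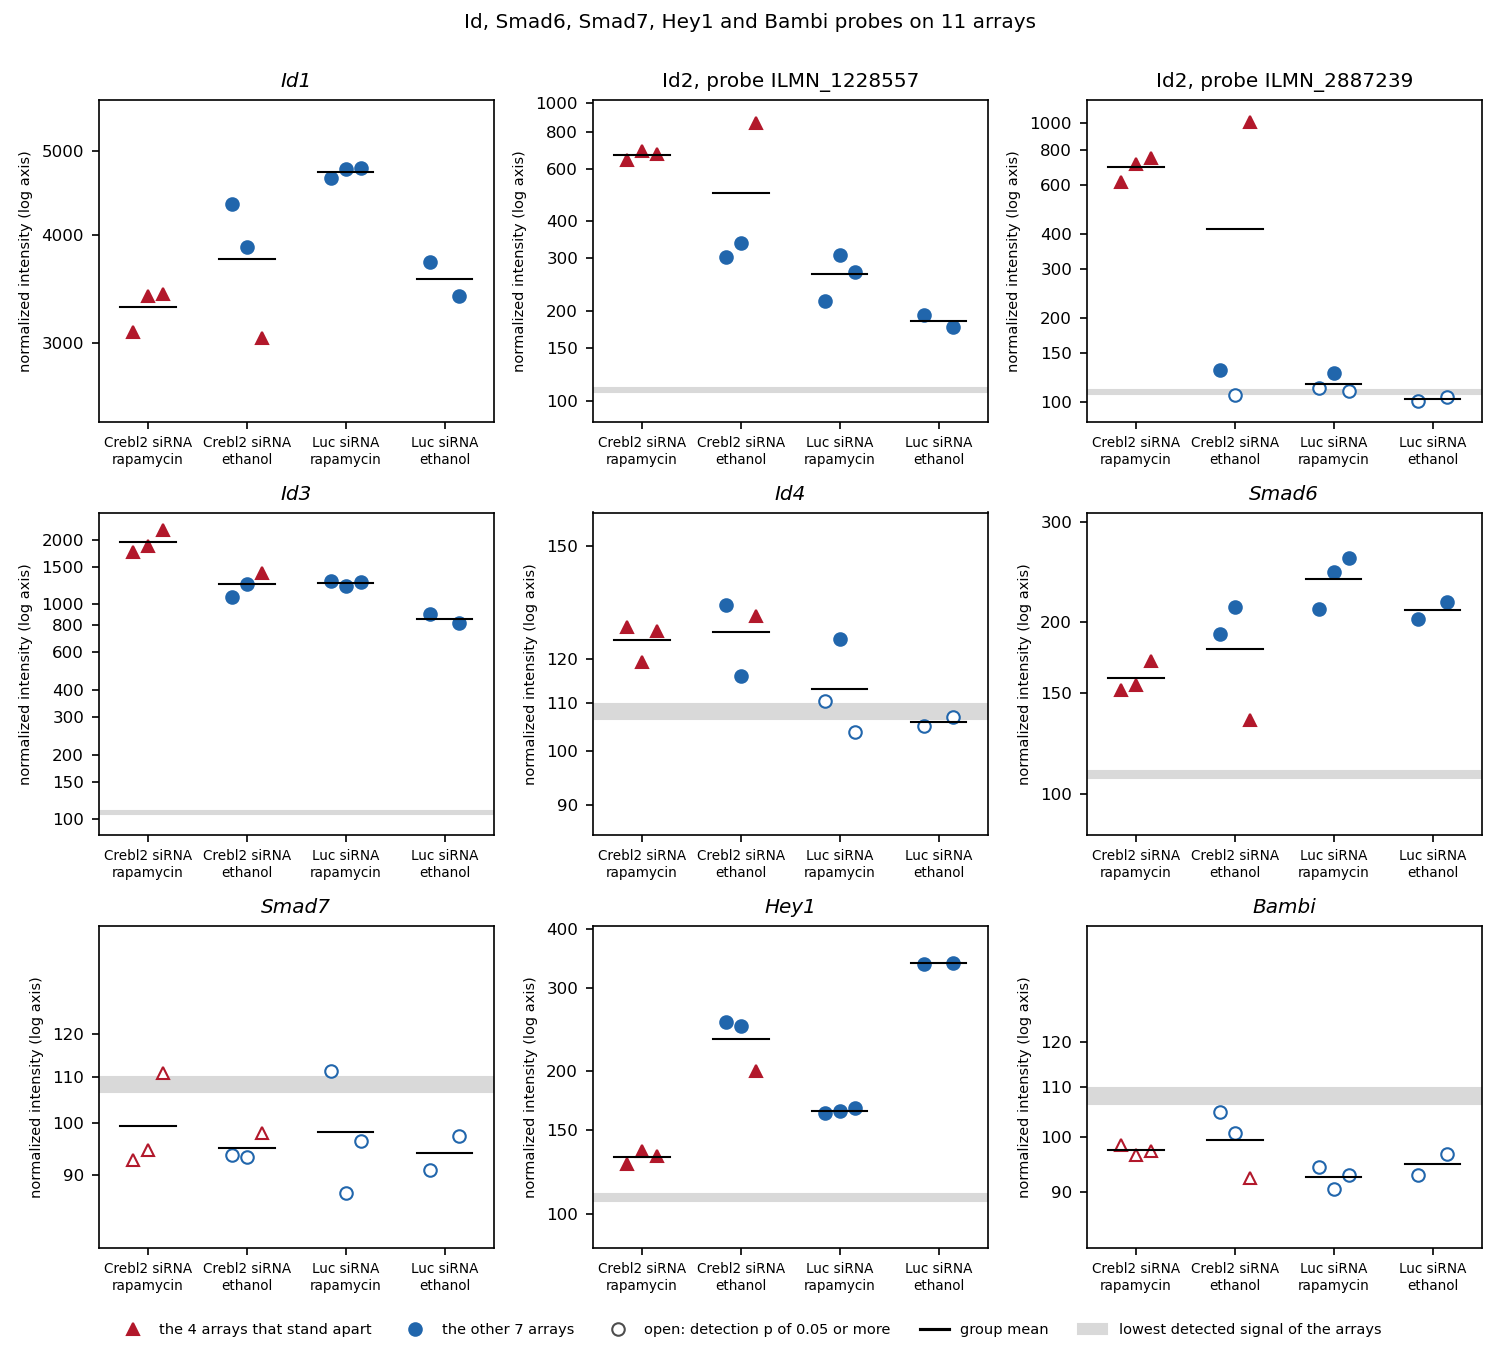
Normalized intensity (log axis, scaled separately for each panel) of the 9 probes on each array, by group. Red triangles are the 4 arrays that stand apart, blue circles the other 7, open symbols probes not detected, bars group means, and the grey band the lowest detected signal of the arrays (106.5 to 109.9). Hey1 was lower in each rapamycin group than in the ethanol group with the same siRNA, and both Id2 probes had their 4 highest values on the 4 arrays that stand apart.

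The question put by the first comparison is how 12 h of rapamycin changed these genes in cells with luciferase siRNA, where all arrays belong to the set of 7. Hey1 fell to 0.489 of its ethanol intensity and Id3 rose 1.47-fold. Id1 was higher on each rapamycin array than on both ethanol arrays without passing the test over all probes. Among the 28936 probes tested, 7.25% were called in either direction in this comparison, and 2 of the 7 member probes were.

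Hey1, the bHLH repressor, had intensities of 164, 165 and 167 with rapamycin and luciferase siRNA, against 338 and 338 with ethanol. The 2 groups were far apart, with almost no spread within either. Its log2 change was -1.03 ± 0.10 (SE; limma adjusted p = 0.00032). The call held in all 22 alternatives, and after background correction, which the authors' scale does not include, the change was -1.71 ± 0.19 with normexp and -1.73 ± 0.20 with neqc.

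Id3 had 1286, 1214 and 1276 with rapamycin and luciferase siRNA, against 899 and 818 with ethanol. Every rapamycin array exceeded both ethanol arrays. The log2 change was 0.55 ± 0.13 (adjusted p = 0.0239). Leaving out any 1 of the 5 arrays of these groups kept the change between 0.48 and 0.62 but ended the call, with the largest adjusted p, 0.206, without replicate 2 of luciferase siRNA with ethanol. It also ended with neqc (adjusted p = 0.113) and normexp (0.0878).

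Id1 had 4649, 4766 and 4773 with rapamycin and luciferase siRNA, against 3722 and 3399 with ethanol. These groups did not overlap either. The log2 change of 0.41 ± 0.13 had an adjusted p of 0.0929, and 0.00333 in the fit of only the 7 arrays, where the value is the same and the spread smaller. The brighter Id2 probe, ILMN_1228557, had 216, 309 and 271 with rapamycin, against 193 and 177 with ethanol. Its change of 0.51 ± 0.35 was not called (adjusted p = 0.523), but was in the fit of the 7 arrays, at 0.51 ± 0.12 (adjusted p = 0.0039). The ethanol arrays used here also belong to the comparison in which Id2 was known to differ, so this Id2 call is no independent support. The 11-array fit takes its spread also from the Crebl2 siRNA with ethanol group, in which replicate 3 lay far from the other 2.

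The other probes gave no call in either fit. The second Id2 probe, ILMN_2887239, was not well above background on either ethanol array and was detected on 1 of 3 rapamycin arrays, with 112, 127 and 110 against 101 and 104. Its ratio of group means was 1.06-fold, and that of Id4, also undetected in ethanol and detected on 1 of 3 rapamycin arrays, 1.03-fold. Id4 had 110, 125 and 104 with rapamycin, against 105 and 107 with ethanol, so its groups overlapped. With 1 detected array in the rapamycin group for each probe, these ratios are no lower bounds and no direction is settled. For such probes the dim group enters at the higher of its own signal and the lowest detected signal of its arrays. Smad6 had 211, 245 and 259 with rapamycin, against 203 and 217 with ethanol, so the groups overlapped (0.18 ± 0.17, adjusted p = 0.679, 95% interval -0.19 to 0.55).

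Around these genes the pathway was followed through 79 listed genes in 8 lists, of which 71 had a probe and 63 were tested, each by its brightest probe. With rapamycin and luciferase siRNA, 8 of the 63 rose and 0 fell, while over all 15908 genes 4.80% rose and 4.46% fell. The median log2 change of the 63 was 0.12, against 0.02 for all genes. In the fit of the 7 arrays 19 rose and 3 fell, where 11.6% of all genes rose and 9.62% fell. The 3 that fell there were Bhlhe40 (-0.41) and Twist2 (-0.35), both bHLH proteins, and Tgif1 (-0.33), a Smad corepressor; they were chosen for naming after their values were seen.

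Of the ligands, Tgfb3 rose by 1.10 ± 0.29 (adjusted p = 0.0487) and Bmp4, a BMP ligand, by 0.88 ± 0.16 (0.00758). Bmp4 had 4962, 5167 and 4335 with rapamycin, against 2504 and 2728 with ethanol. Of the receptors, the activin type II receptor Acvr2b rose by 0.92 ± 0.11 (0.00074) and Tgfbr2 by 0.50 ± 0.12 (0.0265), the second on 1 of its 3 probes. Among secreted regulators of BMP ligands, Fstl1 rose by 0.77 ± 0.10 (0.00106) and Bmper by 0.69 ± 0.10 (0.00269). Pmepa1, which restrains TGF-beta signalling inside the cell, rose by 0.62 ± 0.16 (0.0415) on 1 of 2 probes, and the matricellular target Ccn2 by 0.60 ± 0.10 (0.00389). No tested gene of the Smad, Notch and Hes/Hey, or bHLH partner lists, which hold none of the 8 members, passed in the 11-array fit. The log2 changes of the 6 Notch and Hes/Hey genes had a median of 0.01. The largest of these was that of Hes1 (0.60 ± 0.22, adjusted p = 0.160), and the others lay between -0.09 and 0.11. The summed intensity of the fibroblast markers also differed, at 33196 to 35050 with rapamycin and 27124 to 27689 with ethanol. Of the 10 tested fibroblast markers 1 was called higher and 0 lower. The part of this difference in these results was not tested.

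**Figure D2:**
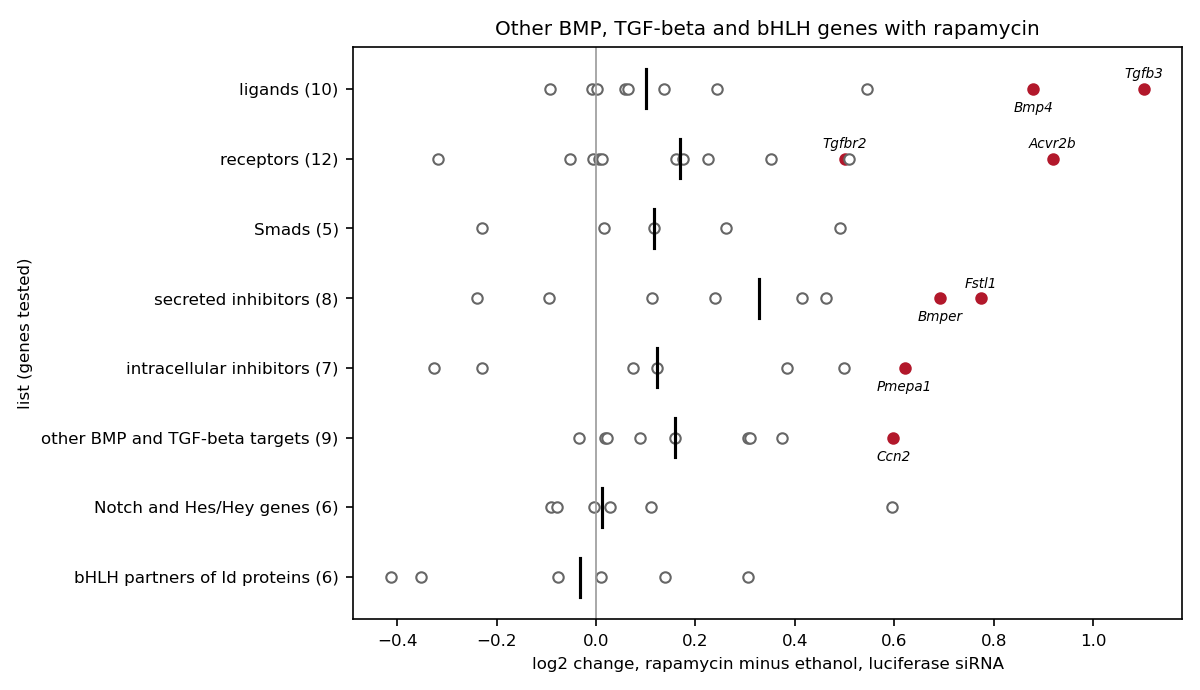
Log2 change with rapamycin in cells with luciferase siRNA (horizontal axis) of each of the 63 tested pathway genes, by list, with the number tested in brackets. Red filled points passed the test at an adjusted p under 0.05, grey open points did not, and black bars are list medians; the 8 called genes all lie above 0.5.

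With Crebl2 siRNA, rapamycin gave the same 2 calls among the members as with luciferase siRNA. Hey1 fell and Id3 rose, and 9.03% of all probes were called. The 2 rapamycin comparisons share no array, though 1 fit gives both their spread.

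Hey1 had 127, 136 and 132 with rapamycin and Crebl2 siRNA, against 254, 249 and 201 with ethanol. No rapamycin array reached the lowest ethanol array. The log2 change was -0.82 ± 0.09 (adjusted p = 0.00123). It was -0.61 ± 0.11 (adjusted p = 0.00145) with the term for the 4 arrays, which rests on replicate 3 of the ethanol group, and -0.93 ± 0.09 (2.13e-09) without that replicate. The value with normexp was -1.70 ± 0.17 and with neqc -1.83 ± 0.18.

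Id3 had 1750, 1867 and 2233 with rapamycin and Crebl2 siRNA, against 1087, 1244 and 1395 with ethanol. Again the groups were separate. The log2 change was 0.65 ± 0.11 (adjusted p = 0.00894), with 0.48 ± 0.13 (0.0324) under the term for the 4 arrays and 0.74 ± 0.10 (2.07e-06) without replicate 3 of the ethanol group. The call ended in 1 of 21 alternatives, the fit of only these 2 groups (adjusted p = 0.0737).

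The other Id probes and Smad6 turned with the array that split its group. Id1 had 3091, 3397 and 3423 with rapamycin, against 4346, 3873 and 3046 with ethanol, of which the lowest is replicate 3. Its change of -0.17 ± 0.12 was not called (adjusted p = 0.391), became -0.31 ± 0.09 without replicate 3 (0.00995) and was 0.12 ± 0.12 with the term for the 4 arrays (0.742). Id2 probe ILMN_1228557 had 643, 689 and 671 with rapamycin, against 305, 338 and 855 with ethanol. Probe ILMN_2887239 had 615, 714 and 748 against 130, 106 and 1009. On both probes replicate 3 of the ethanol group was the highest of the 6 arrays and the other 2 ethanol arrays the lowest. The changes of 0.59 ± 0.31 (adjusted p = 0.258) and 1.52 ± 0.64 (0.157) became 1.06 ± 0.11 and 2.55 ± 0.11 without replicate 3 (2.07e-08 and 7.39e-17). With the term for the 4 arrays they were -0.36 ± 0.14 (0.177) and -0.55 ± 0.14 (0.015). Neither direction can therefore be given for Id2 with rapamycin in these cells. Smad6 had 152, 155 and 171 with rapamycin, against 191, 213 and 135 with ethanol. Its change of -0.15 ± 0.15 (0.597) was -0.34 ± 0.10 without replicate 3 (0.00986) and 0.24 ± 0.13 (0.368) with the term. Id4 had 128, 119 and 127 with rapamycin, against 134, 116 and 131 with ethanol, a change of -0.02 ± 0.09 (0.907).

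Of the 63 pathway genes 11 rose and 0 fell with rapamycin and Crebl2 siRNA, while 4.78% of all genes rose and 5.89% fell. The median log2 change of the 63 was 0.10, against -0.02 for all genes. The 10 with the largest rises were the ligands Gdf6 (1.04) and Bmp6 (0.66), the receptors Bmpr1a (0.88, on 1 of 2 probes), Acvr1 (0.70) and Acvr2b (0.56), the secreted Fstl1 (0.56), the corepressors Tgif1 (0.70, on 1 of 3 probes) and Skil (0.56), and the matricellular targets Ccn1 (1.41, on 2 of 3 probes) and Ccn2 (0.89). With the term for the 4 arrays 11 rose and 0 fell too, but 7 of the 11 were shared, and 4.13% of all genes rose and 2.47% fell. Gdf6 (0.22), Acvr1 (0.17), Tgif1 (0.29) and Bmp6 (0.42) were not called with the term, while Ccn1 was at 0.65 and Bmpr1a at 0.48. Gdf6 had 264, 212 and 295 with rapamycin, against 90.6, 95.7 and 218 with ethanol, the first 2 of these near background and the last replicate 3. Without replicate 3 of the ethanol group, a fit in which rapamycin and the array set cannot be told apart, 18 rose and 10 fell. There 15.9% of all genes rose and 22.7% fell. Over all probes 1233 were higher and 1381 lower, against 480 higher and 1220 lower with neqc.

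**Figure D3:**
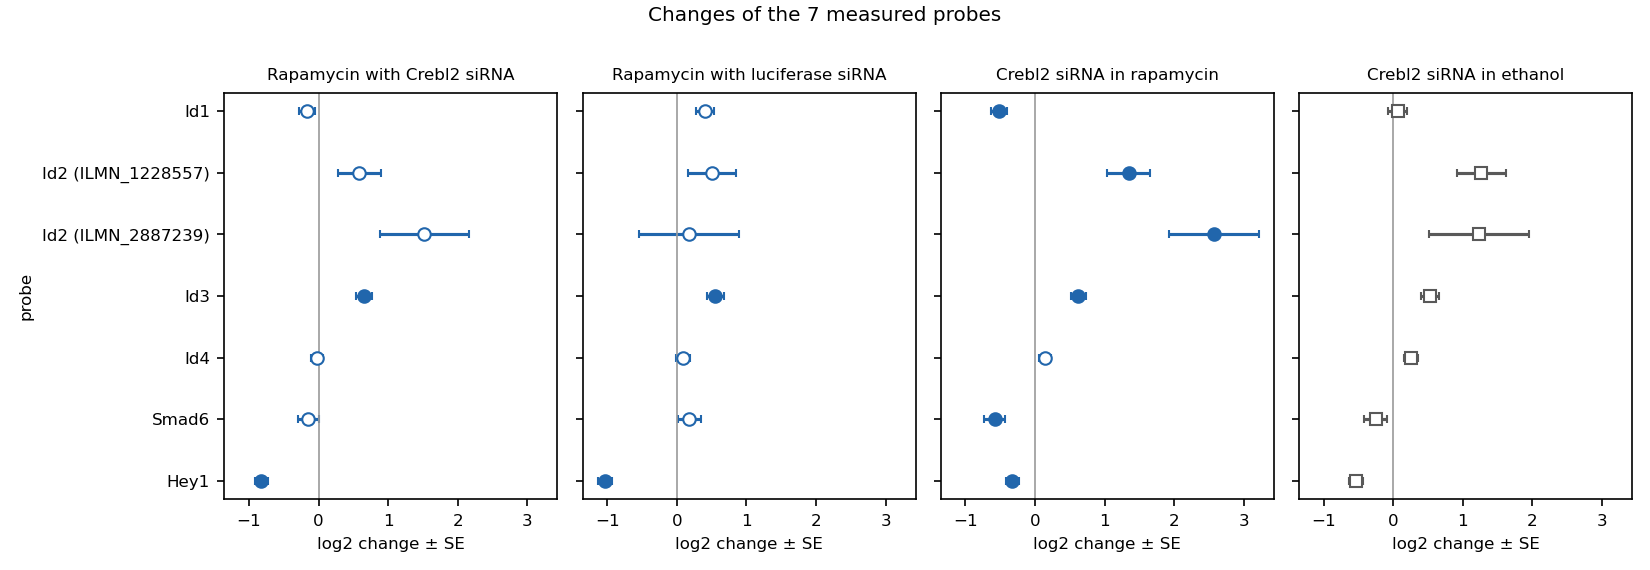
Log2 change ± SE (horizontal axis) of the 7 tested member probes in 4 comparisons of the 11-array fit. Filled circles passed at an adjusted p under 0.05, open circles did not, and grey squares are values given with no test. Hey1 lay below 0 and Id3 above 0 in both rapamycin panels.

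The next comparison asks how Crebl2 siRNA changed these genes in the presence of rapamycin. Here 6 of the 7 member probes were called, where 30.0% of all probes were. Of the 6, Id2 probe ILMN_2887239 passed the detection filter only through Crebl2 siRNA arrays. All 3 Crebl2 siRNA arrays belong to the 4 that stand apart and all 3 luciferase siRNA arrays to the other 7, so within this comparison the siRNA and the array set cannot be told apart. With the term for the 4 arrays none of the 6 calls remained.

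Id2 had on probe ILMN_1228557 intensities of 643, 689 and 671 with Crebl2 siRNA and rapamycin, against 216, 309 and 271 with luciferase siRNA and rapamycin. On probe ILMN_2887239 it had 615, 714 and 748, against 112, 127 and 110, of which 1 was detected. The Crebl2 siRNA arrays were the higher ones on both probes, with no overlap. The log2 changes were 1.35 ± 0.31 (adjusted p = 0.00934) and 2.57 ± 0.64 (0.0129). Since probe ILMN_2887239 passed the filter only through Crebl2 siRNA arrays, where it is high, its call adds no support of its own. With the term for the 4 arrays the 2 changes were -0.07 ± 0.18 (0.935) and -0.53 ± 0.17 (0.12). With normexp they were 1.76 ± 0.41 and 4.47 ± 1.06.

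Id3 had 1750, 1867 and 2233 with Crebl2 siRNA, against 1286, 1214 and 1276 with luciferase siRNA, in rapamycin. The groups did not overlap. Its log2 change was 0.62 ± 0.11 (adjusted p = 0.00374), and 0.36 ± 0.17 (0.347) with the term. Id1 was lower by 0.52 on the log2 scale (-0.52 ± 0.12, adjusted p = 0.00819), with 3091 to 3423 against 4649 to 4773, and -0.09 ± 0.15 (0.876) with the term. Id4, at 128, 119 and 127 against 110, 125 and 104, was not called (0.14 ± 0.09, 0.257).

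Smad6, the inhibitory Smad, had 152, 155 and 171 with Crebl2 siRNA and rapamycin, against 211, 245 and 259 with luciferase siRNA and rapamycin. Each Crebl2 siRNA array was lower. The log2 change was -0.58 ± 0.15 (adjusted p = 0.0153), -1.04 ± 0.30 with normexp, -1.12 ± 0.33 with neqc and 0.00 ± 0.16 (0.999) with the term. Leaving out replicate 2 or 3 of luciferase siRNA, or replicate 1 or 2 of Crebl2 siRNA, also ended the call, at adjusted p of 0.0507 to 0.0613. Hey1 had 127, 136 and 132, against 164, 165 and 167, which are again separate. Its change was -0.33 ± 0.09 (0.0203), -0.78 ± 0.17 with normexp, -0.86 ± 0.18 with neqc and -0.00 ± 0.14 (0.997) with the term. Its call ended without replicate 2 or 3 of luciferase siRNA or replicate 1 or 3 of Crebl2 siRNA (adjusted p of 0.0551 to 0.0682).

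Of the 63 pathway genes 12 rose and 11 fell with Crebl2 siRNA in rapamycin, with 11.8% of all genes rising and 20.7% falling, and a median of -0.12 against -0.08 for all genes. With the term for the 4 arrays, where 1.04% of all genes rose and 1.53% fell, 3 rose and 1 fell. The receptor Bmpr1a (0.63), the activin subunit Inhba (0.70) and Tgfb3 (0.72) rose, and the secreted matrix protein Tgfbi (-0.70) fell. These were chosen for naming after their values were seen. The direction of Tgfb3 turned with the term, since without it the change was -0.52 ± 0.26 (limma adjusted p = 0.166, not called). In ethanol with Crebl2 siRNA, where the term is estimated, Tgfb3 had 469 on replicate 3, against 1156 and 1060. The largest rises without the term were those of the Notch ligand Jag1 (2.47 ± 0.48, adjusted p = 0.00512) and of Mxi1 (2.28 ± 0.56, 0.0119), a bHLH protein that opposes Myc. Gdf6 (1.30), Bmpr1a (1.22), Ccn1 (1.20) and Tgif1 (0.79) followed, and the largest falls were those of the co-receptor Tgfbr3 (-0.86), Tgfbi (-0.80), the Hes family gene Hes6 (-0.77) and the ligand Tgfb1 (-0.75). Probes disagreed for Ccn1 and Tgif1, each with another probe that fell (-0.67 and -0.39), and for Bmpr1a, whose other probe was not called (-0.39). Jag1 had 899, 850 and 917 with Crebl2 siRNA and rapamycin, against 131, 170 and 184 with luciferase siRNA, but 772 on replicate 3 of Crebl2 siRNA with ethanol and 148 and 170 on the other 2. That is the array pattern of Id2. Mxi1 shared it, with 1403, 1261 and 1253 with Crebl2 siRNA and rapamycin, against 328, 270 and 217 with luciferase siRNA and rapamycin. In ethanol with Crebl2 siRNA, Mxi1 had 1322.5 on replicate 3, against 209 and 206. Summed epithelial marker intensity was 3430 to 3847 with Crebl2 siRNA and 4638 to 5290 with luciferase siRNA in rapamycin. Of the 4 tested epithelial markers 0 were called higher and 2 lower. Summed fibroblast marker intensity was 38388 to 40772 and 33196 to 35050, but of the 10 tested fibroblast markers 3 were called higher and 3 lower. The summed adipocyte marker intensity was 5627 to 6426 with Crebl2 siRNA and 10120 to 11928 with luciferase siRNA in rapamycin. The 1 tested gene of that list, Lpl, was lower and called (-0.89), and the other 4 were detected on no array. Their part in these results was not tested.

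**Figure D4:**
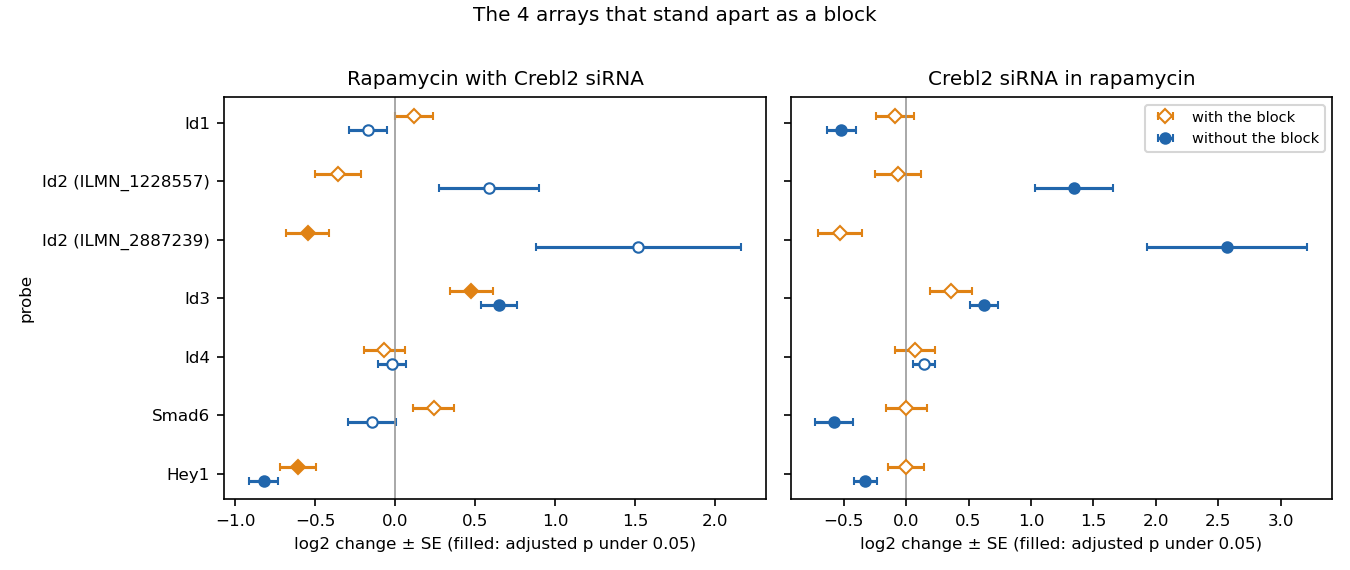
Log2 change ± SE (horizontal axis) of the 7 tested member probes for rapamycin with Crebl2 siRNA (left) and for Crebl2 siRNA in rapamycin (right). Orange diamonds are fitted with a term for the 4 arrays that stand apart and blue circles without it; filled symbols passed at an adjusted p under 0.05. Hey1 and Id3 passed in both fits on the left, whereas on the right no member passed with the term.

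How the members follow the array sets was read directly from the 11 values. Both Id2 probes and Id3 were higher, and Smad6 lower, on each of the 4 arrays than on any of the other 7, which makes 4 of the 7 probes. Over all probes 11.7% were higher and 14.7% lower without overlap. For Id2 the 4 arrays held 643 to 855 against 177 to 338 on one probe, and 615 to 1009 against 101 to 130 on the other. For Id3 the range was 1395 to 2233 against 818 to 1286, and for Smad6 135 to 171 against 191 to 259. Hey1, Id1 and Id4 overlapped between the sets.

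In ethanol, Crebl2 siRNA arrays had 305, 338 and 855 for Id2 on probe ILMN_1228557, against 193 and 177 with luciferase siRNA. All 3 exceed both, but replicate 3 stands far above its group. The log2 difference was 1.27, or 0.79 without replicate 3. Probe ILMN_2887239 had 130, 106 and 1009, the second not detected, against 101 and 104, both undetected. The ratio over the group was 2.20-fold, which is no lower bound with an undetected Crebl2 siRNA array, and its high value is replicate 3. Of the other 2 Crebl2 siRNA arrays 1 was detected and 1 was not, so that no difference is given without replicate 3. Both Id2 probes were higher on the 4 arrays, while on the other 7 arrays probe ILMN_2887239 stayed near background. For rapamycin with luciferase siRNA, neither of the groups compared holds any of the 4 arrays. The log2 change of probe ILMN_2887239 there was 0.18 ± 0.10 in the fit of the other 7 arrays, not called (limma adjusted p = 0.293). It was -0.17 ± 0.67 with the replicate number as a block, but that fit also takes in the 4 arrays, so its sign cannot decide the direction. The direction is not settled, since the probe was detected on only 1 array of these groups.

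Id3 had 1087, 1244 and 1395 with Crebl2 siRNA in ethanol, against 899 and 818, a log2 difference of 0.53, or 0.44 without replicate 3. Hey1 had 254, 249 and 201, against 338 and 338, a difference of -0.54, or -0.43 without replicate 3. Neither gene overlapped between the groups. Id1, at 4346, 3873 and 3046 against 3722 and 3399, did overlap (0.06, or 0.21 without replicate 3), as did Smad6, at 191, 213 and 135 against 203 and 217 (-0.25, or -0.06). Id4 was detected on all 3 Crebl2 siRNA arrays, with 134, 116 and 131, and on neither luciferase siRNA array, with 105 and 107, a ratio of at least 1.15-fold.

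This comparison shares its 2 luciferase siRNA arrays with the first rapamycin comparison. In it 5.52% of all probes were called, and per gene 1.32% higher and 5.32% lower. Of the 63 pathway genes 4 rose (Bmpr1a 0.85 on 1 of 2 probes, Bmper 0.62, Fstl1 0.58, Inhba 0.56) and 4 fell (Tgfbi -0.78 on 1 of 2 probes, Chrd -0.74, Tgfbr3 -0.56, Ccn2 -0.37). Without replicate 3 of Crebl2 siRNA with ethanol these counts were 10 and 8, where 4.90% of all genes rose and 7.76% fell. The summed adipocyte marker intensity was 7210 to 7452 with Crebl2 siRNA and 11572 to 12900 with luciferase siRNA in ethanol, with its 1 tested gene, Lpl, called (-0.78). Summed fibroblast marker intensity was 28380 to 37569 and 27124 to 27689, with 0 of 10 tested markers called higher and 0 lower. Summed epithelial marker intensity was 2558 to 4248 and 4791 to 4839, with 0 of 4 tested markers called higher and 1 lower. Their part in these results was not tested. The interaction, which asks whether rapamycin acted differently under the 2 siRNAs, called 0.232% of all probes. Its largest member values were 1.34 ± 0.96 for Id2 probe ILMN_2887239, undetected on both luciferase siRNA arrays in ethanol, and -0.58 ± 0.17 for Id1, whose rapamycin change was -0.17 with Crebl2 siRNA and 0.41 with luciferase siRNA. With the term for the 4 arrays these were -0.73 ± 0.17 and -0.30 ± 0.15. The other Id2 probe, ILMN_1228557, was at 0.08 ± 0.47 without the term and at -0.86 ± 0.18 with it. For Hey1 the interaction was 0.21 ± 0.14, and 0.42 ± 0.14 with the term. Id3 was at 0.10 ± 0.17, and -0.0776 ± 0.17 with the term, and Smad6 at -0.33 ± 0.22, and 0.0595 ± 0.16 with the term. The direction thus turned with the term for Id2, Id3 and Smad6.

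Set in order of mean intensity, Hey1 was at 132 ± 4.3 with Crebl2 siRNA and rapamycin, 165 ± 1.71 with luciferase siRNA and rapamycin, 234 ± 29.3 with Crebl2 siRNA and ethanol (SD, n = 3 each) and 338 ± 0.589 with luciferase siRNA and ethanol (SD, n = 2). No neighbours in this order overlapped. Id3 ran the other way, at 1950 ± 252 with Crebl2 siRNA and rapamycin, 1259 ± 38.8 with luciferase siRNA and rapamycin, 1242 ± 154 with Crebl2 siRNA and ethanol (SD, n = 3 each) and 859 ± 57.4 with luciferase siRNA and ethanol (SD, n = 2). The middle pair overlapped and the outer ones did not. All Crebl2 siRNA and rapamycin arrays are among the 4 that stand apart, and so is replicate 3 of Crebl2 siRNA and ethanol. With the term for the 4 arrays, the log2 step from luciferase siRNA to Crebl2 siRNA in rapamycin was -0.00291 for Hey1 and 0.36 for Id3, neither called. As whole orders, these therefore cannot be told apart from the array sets. On the other 7 arrays alone, Hey1 was at 164 to 167 with luciferase siRNA and rapamycin, and at 254 and 249 with Crebl2 siRNA and ethanol. With luciferase siRNA and ethanol it was at 338 on both arrays. Id3 was on these arrays at 1214 to 1286, at 1087 and 1244, and at 899 and 818 in the same order of groups. For Id1 the order was luciferase siRNA and rapamycin (4729 ± 69.7), Crebl2 siRNA and ethanol (3755 ± 658), luciferase siRNA and ethanol (3561 ± 229) and Crebl2 siRNA and rapamycin (3304 ± 184), and the last 3 overlapped.

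The genes most like Id1 and Id2 were found by Pearson's r of log2 values over the 11 arrays, among probes of other genes. For Id1 they were Tmem141 (r = 0.980, and 0.980 over the 7 arrays), Chrac1 (0.973 and 0.947), Stk11 (0.968 and 0.929), Nfrkb (0.967 and 0.962) and 2010005J08Rik (0.964 and 0.953). For Id2 probe ILMN_1228557 they were Crbn (0.991 and 0.966), H3c13 (0.988 and 0.945), Ncbp2 (0.988 and 0.942), Atp5h (0.985 and 0.930) and Gtf2a1 (0.982 and 0.877). The arrays share groups and the split into 4 and 7, and these are the highest values among all probes kept, so they are a description only.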

How the data were processed

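Groups came from the submitters' labels. Per the file headers, each probe of the authors' normalized data has a linear intensity and a detection p-value on every array; how they were normalized is not given in the sources used here. The deposited non-normalized table also holds an intensity and a detection p-value, but its identifiers did not belong to its values: joined by identifier, the tables correlated at -0.00964 to -0.00628 on an array. After matching lines by rank they correlated at 0.999653 to 0.999996, and this table served as an alternative only. Probe names came from the platform annotation (35784 of the probes with 1 symbol, 0 with several, 10453 with none).

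Of 46237 probes the fit took the 28936 with a detection p-value below 0.05 on 2 or more arrays. The log2 values of the authors' intensities, not background-subtracted, entered 1 fit of 4 group means in limma 3.58.1 (lmFit, eBayes; 7 residual and 3.64 prior degrees of freedom; R 4.3.3; data.table, version 1.17.8), with Benjamini-Hochberg adjustment over all kept probes and a threshold of 0.05. Changes of dim probes are understated on this scale. The number of arrays limits the precision. Pathway genes were named where they passed, at most the 10 largest per comparison, plus those that bear on a member; members and lists were chosen with earlier results of these data known, and so were the alternatives. Tested on simulated data for rapamycin with luciferase siRNA, 87% of 200 log2 changes of 1 among 28936 probes were recovered and 2.79% of calls were false. The simulated noise was independent between probes and held no shared shift of the 4 arrays, so these shares need not hold for the real arrays. Listed genes with no probe were not analysed here.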

Additional observations from a re-analysis of the deposited data

How the results depend on the processing

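Hey1 kept its direction and its call with rapamycin in all 22 alternatives with luciferase siRNA and in all 21 with Crebl2 siRNA. The number of probes called moved more. For rapamycin with luciferase siRNA (2099) it was 1073 with neqc, 1150 with normexp, 4697 with only the compared groups, 4674 with array weights, 5172 with the 4 arrays as a block and 5113 with only the other 7 arrays, and 584 to 5172 when 1 array was left out. For rapamycin with Crebl2 siRNA (2614) it was 1700, 1299, 206, 10531 and 1546 in the same order up to the block, and 630 to 10247 when 1 array was left out, the highest without replicate 3 of Crebl2 siRNA with ethanol. For Crebl2 siRNA in rapamycin (8676) it was 575 with the 4 arrays as a block and 5231 with 1 probe per gene, where fewer probes are tested. For Crebl2 siRNA in ethanol (1598) it was 733 with neqc, 848 with normexp, 3473 with array weights, 3109 with the block, 3058 with only the 7 arrays and 224 to 3109 when 1 array was left out; with only the compared groups limma called 0, with 3662 at an unadjusted p under 0.05. For the interaction (67) it was 1 with normexp, 6950 with array weights, 412 with the block and 0 to 7244 when 1 array was left out (limma's 0, without replicate 2 of luciferase siRNA with ethanol, had 2425 at an unadjusted p under 0.05), and 0 with neqc, with 3641 at an unadjusted p under 0.05. Where no construction shows it, the cause was not tested.

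Directions turned with the 4 arrays as a block for rapamycin with Crebl2 siRNA on Id2 (-0.36 and -0.55 on its 2 probes), Smad6 (0.24) and Id1 (0.12), for Crebl2 siRNA in rapamycin on Id2 (-0.0673 and -0.53) and Smad6 (0.00206), and for the interaction on Id2 (-0.86 and -0.73, against 0.08 and 1.34 without it), Id3 (-0.0776 against 0.10) and Smad6 (0.0595 against -0.33). Id4 with rapamycin and Crebl2 siRNA was between -0.0845 and 0.0173 when 1 array was left out. Same-numbered arrays of different groups did not deviate together (r of -0.106 to 0.146 over 15 pairs, 1 of them over 0.1), so no pairing by replicate number was seen. These deviations cannot exclude one: in the group of 2 arrays they mirror each other, and in Crebl2 siRNA with ethanol replicate 3 lies far from the others. With the replicate block, Crebl2 siRNA in ethanol called 968 probes and the interaction 11, and Id2 probe ILMN_2887239 was at -0.17 for rapamycin with luciferase siRNA. Signal over background limits Smad7, Bambi, Id4 and that Id2 probe. With normexp, 4 of the 63 pathway genes rose with rapamycin and luciferase siRNA and 6 with rapamycin and Crebl2 siRNA, with 0 falling in both.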
